A study of Rattus norvegicus with 12 samples.

Results

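Cells of rats unloaded for 14 days were compared with cells of rats unloaded for 7 days, both at day 3 of adipogenic induction, in 4 of the 12 libraries of the series. The 2 libraries of each group were taken by their labels, and the comparison covered all 13215 genes with enough reads to be tested. The cells are fibro-adipogenic progenitors of the rat soleus muscle, grown as primary cultures. The rats had been kept in hindlimb suspension, in which the hind legs bear no weight, for 14 or 7 days before the cells were taken. The labels name no genotype, strain, age or number of animals. All groups grew in the same serum medium; at day 3 the medium also held insulin, dexamethasone and 3-isobutyl-1-methylxanthine. The 8 other libraries are those of both periods at day 0, before induction, and those of control rats at day 3 and day 0. Day 3 cells without induction are not among the groups, and the effects of induction and of days in culture cannot be told apart.

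Fibro-adipogenic progenitors are the mesenchymal cells between the fibers of skeletal muscle. They give signals to muscle stem cells during repair, and they are the source of the fat and fibrous tissue that build up in damaged or disused muscle. Insulin, a glucocorticoid and an inhibitor of cyclic AMP breakdown are the classical inducers of fat cell differentiation in culture. They turn on a cascade of transcription factors, which then switches on the genes of lipid storage. The soleus is a postural muscle and loses mass quickly when its load is taken away.

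The count table gives Ensembl rat gene identifiers, and 0 of its 32622 identifiers matched the RefSeq table of rat genes used here (GRCr8). No gene could therefore be given a symbol, a function or a sequence, and no list of pathway or cell type genes could be applied. The labelled cell type could not be checked against its markers for the same reason. Genes are described by their level, by their size of change and by their behaviour in the other libraries. The first 2 rises and the first 2 falls are given by identifier, from a ranking by fold change of called genes whose higher group averaged 5 CPM or more, with no overlap of the groups; genes under that level had larger fitted changes. Levels are CPM, counts scaled to a common library size, on libraries scaled by TMM, and are not per gene length.

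The 4 libraries were of similar depth and close within groups. They held 18803603 and 19916270 counts after 14 days, against 18179911 and 16379216 counts after 7 days; over all 12 libraries the totals ran from 15105521 to 21484885. Between 14930 and 15275 genes had at least 1 read in a library. Replicates correlated over genes at r = 0.9903 after 14 days and 0.9897 after 7 days in log2 CPM at day 3. The labels do not say that the replicates came from separate animals or cultures, so the p-values rest on library-to-library spread, which may be technical. An effect of the period of unloading therefore cannot be told apart from differences between the animals or cell preparations of the groups. Even numbers made up 68.3% to 70.6% of the small counts (1 to 20), depending on the library, and the labels do not say whether both reads of a pair were counted.

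At day 3 about as many genes were higher as were lower after 14 days, but the large differences were mostly falls. In all 2988 genes (22.6%) were called. By the quasi-likelihood test of edgeR at a Benjamini-Hochberg adjusted p of 0.05, 1529 genes (11.6%) were higher and 1459 (11.0%) lower than after 7 days. At least 2-fold differences were called in 411 genes (3.11%), 89 of them higher (0.673%) and 322 lower (2.44%). At least 4-fold differences were called in 23 genes higher (0.174%) and 205 lower (1.55%), and at least 8-fold ones in 11 higher (0.0832%) and 105 lower (0.795%). The median size was 1.28-fold for genes that rose and 1.37-fold for genes that fell; 10% of the rises were beyond 1.73-fold and 10% of the falls beyond 6.16-fold.

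The surplus of large falls was also present among genes with more reads. With at least 5 CPM in the group where the gene was higher, 34 genes rose and 132 fell at least 2-fold. At 4-fold these counts were 1 and 70, and at 8-fold 0 and 38. The total of called genes was 1696 without the first 14-day library and 1827 without the first 7-day library. Of the 2988, 1235 were called with the same sign in all 4 fits that left out 1 library, and so were 37 of the 89 large rises and 215 of the 322 large falls.

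**Figure D1:**
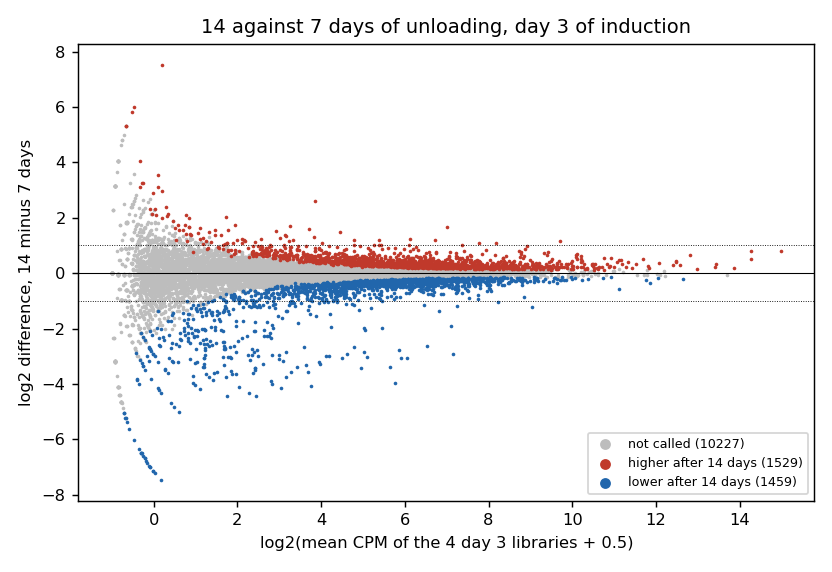
Each point is 1 of the 13215 genes; the x axis is the log2 of its mean CPM in the 4 day 3 libraries plus 0.5, the y axis its fitted log2 difference, 14 minus 7 days, and dotted lines mark 2-fold. Most genes called higher after 14 days (1529, red) lie in a narrow band that reaches the highest levels, though 23 were at least 4-fold higher. Those called lower (1459, blue) include a scattered group between about -2 and -4. The curved streaks at the left edge are genes with 0 reads in a group.

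With TMM scaling, rises and falls over all calls differed in the level of the genes they affected. Genes were cut into 5 equal classes by their mean CPM over all 12 libraries. In the highest class, from 70.7 CPM upwards, 691 genes (26.1% of the class) were higher after 14 days and 453 (17.1%) lower. In the lowest class, up to 3.00 CPM, 54 (2.04%) were higher and 176 (6.66%) lower. Large falls were mostly in the lower classes, and so were large rises. Of the 322 large falls, 171 were in the lowest class and 97 in the second, with 9 in the highest. Of the 89 large rises, 53 were in the lowest class and 5 in the highest.

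**Figure D2:**
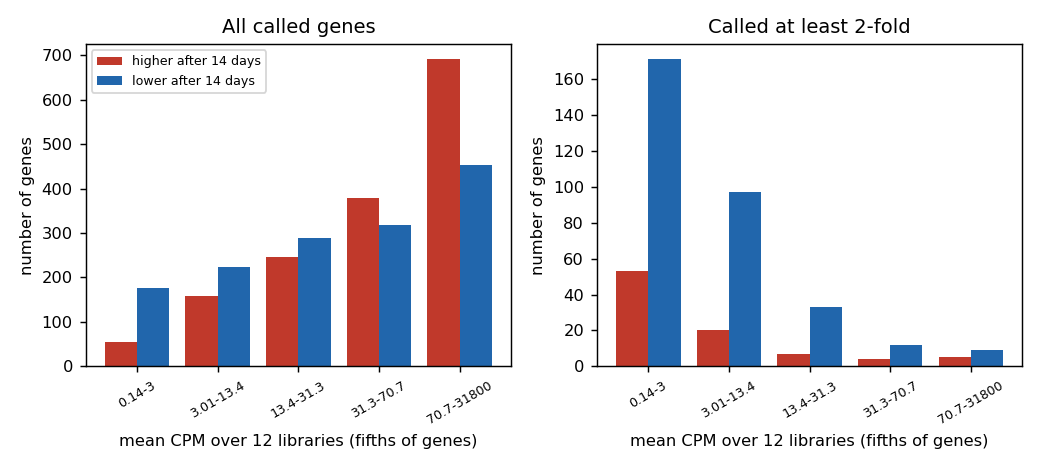
Bars count the genes called higher (red) and lower (blue) after 14 days at day 3 in 5 classes of 2643 genes, cut by mean CPM over 12 libraries; the left panel holds all calls, the right panel those of at least 2-fold. All calls become more frequent with level. The large falls number 171 in the lowest class and 9 in the highest, and the large rises 53 and 5.

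Low genes, whose replicates spread more, need a larger difference to be called. In the lowest class the median gene differed by 0.286 between the group means on the log2(CPM + 0.5) scale. The same median between replicates was 0.293 within each group. In the highest class the median difference between groups was 0.148, against 0.044 between the 14-day replicates and 0.071 between the 7-day replicates. Replicate values compare single libraries and group values compare means of 2, so these medians are not on one scale.

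The 10 most abundant transcripts took a larger share of the counts after 14 days. The 10 genes with the highest mean CPM held 14.9% and 14.8% of the counts in the 14-day libraries at day 3, against 11.4% and 11.7% in the 7-day libraries. Control cells at day 3 stood at 11.6% and 11.5%. At day 0 the same 10 genes held 14.4% and 14.0% after 14 days, against 12.1% and 13.0% after 7 days, and 13.9% and 13.5% in control cells. Of the 10, 8 were higher after 14 days at day 3, 1 was lower and 1 was not called, with log2 differences from -0.19 to 0.80. Of the 100 most abundant, 54 were higher, 15 lower and 31 not called.

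The balance of small changes depended on the scaling of the libraries. With scaling to the total count the log2 differences moved by a median of -0.113. Then 22.1% of the called genes were higher after 14 days, against 51.2% with TMM. In the highest class of level 329 genes were then higher and 880 lower, which turns the balance round, and of the 100 most abundant genes 34 were higher and 35 lower. Of the 10 most abundant, 7 were still higher and 2 lower. Of the large differences, all 322 large falls were called lower and 79 of the 89 large rises were called higher with that scaling, and all 411 kept their call with the size factors of DESeq2.

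The 322 genes that fell at least 2-fold at day 3 took a small part of the counts. Together they held 0.136% and 0.143% of the counts in the 14-day libraries, against 0.528% and 0.510% in the 7-day libraries. Their median gene stood at 0.733 and 0.746 CPM after 14 days and at 3.56 and 3.78 CPM after 7 days. These values describe a group chosen on the same 4 libraries. Libraries not used in the choice gave the following. In control cells at day 3 the median gene was at 1.04 and 1.06 CPM, close to the 14-day value, but the group held 1.10% and 1.09% of the counts, more than in either unloaded group.

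The mean level was highest in different groups for different genes among the 322. It was highest in 7-day cells at day 0 for 144 genes, in 7-day cells at day 3 for 101 and in control cells at day 3 for 50. It was highest in control cells at day 0 for 14 and in 14-day cells at day 0 for 13. By the choice it could not be highest in 14-day cells at day 3. Over all 13215 genes tested, it was highest in 7-day cells for 1970 at day 0 and 1678 at day 3. In control cells it was highest for 2187 of all genes at day 3 and 2330 at day 0, and in 14-day cells at day 0 for 2074. In 77 of the 322 genes a mean of 1 CPM was reached in 7-day groups and in no other. In 102 genes all 6 groups reached 1 CPM, and in 17 none did. In these bulk libraries fewer cells of a type and less RNA per cell cannot be told apart.

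The day 0 libraries had no part in choosing these falls beyond the shared filter, scaling and estimate of spread. Before induction 175 of the 322 were also lower after 14 than after 7 days, 2 were higher and 145 were not called. Over all genes 6.26% were lower and 5.47% higher at day 0. The median log2 difference of the 322 was -1.35 at day 0 and that of all genes tested was 0. The labels do not say whether the cultures of day 3 and day 0 came from the same animals.

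The 175 genes called lower at both days were, by that choice, higher in 7-day than in 14-day cells whether or not induced. Their median gene was at 0.790 and 0.800 CPM in the 14-day libraries at day 3, against 5.28 and 5.64 CPM in the 7-day libraries. At day 0 it was at 0.950 and 0.947 CPM after 14 days, against 6.37 and 6.58 CPM after 7 days. By this median, control cells were near the 14-day level, with 0.653 and 0.710 CPM at day 3 and 1.06 and 0.999 CPM at day 0. By the sum at day 3 they were not. The 175 then held 0.0531% and 0.0540% of the counts after 14 days, against 0.279% and 0.283% after 7 days, and 0.625% and 0.624% in control cells. By the sum at day 0 control cells were near the 14-day level. The 175 then held 0.0678% and 0.0692% in control cells, 0.0623% and 0.0638% after 14 days, and 0.293% and 0.286% after 7 days. At day 3 the control mean lay below both unloaded groups in 89 of the 175, between them in 68 and above both in 18, and in 148 it was nearer to the 14-day than to the 7-day mean in CPM. The median log2 difference was -2.79 at day 3 and -2.80 at day 0. The change of the difference itself passed the test in both directions among the 175. It was more negative at day 3 in 12 of them and less negative in 11. Over all genes it was more negative in 4.44% and more positive in 4.14%.

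The 145 genes lower at day 3 that were not called at day 0 were chosen by both days, which favours close levels at day 0. Their median gene was at 0.733 and 0.640 CPM in the 14-day libraries at day 3, against 2.26 and 2.52 CPM in the 7-day libraries. Control cells at day 3 had 1.96 and 2.01 CPM, near the 7-day level. At day 0 the medians were 1.37 and 1.42 CPM after 14 days, 1.70 and 1.43 CPM after 7 days, and 1.54 and 1.61 CPM in control cells. The 14-day libraries were below all others at day 3; at day 0 they were also the lowest, but close to the lower 7-day library. Between day 3 and day 0 the median log2 change of these genes was -1.35 in 14-day cells, 0.20 in 7-day cells and 0.18 in control cells. The change of the difference passed the test in 44 of the 145, all more negative at day 3; for the rest a difference between the days was not shown. The unloaded libraries of both days, which chose these genes, enter that test and the changes of the unloaded cells. Over all genes 4.44% were more negative by the test.

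The 2 largest falls by the ranking belonged to the group that was high in 7-day cells at both days. ENSRNOG00000060435 had 0.113 and 0.373 CPM (2 and 7 reads) in 14-day libraries at day 3, against 6.03 and 4.86 CPM (112 and 81 reads) in 7-day libraries. Control cells at day 3 had 0.131 and 0.237 CPM. At day 0 it had 0 and 0.189 CPM after 14 days, against 2.18 and 2.05 CPM after 7 days, and 0.212 and 0.111 CPM in control cells. The 7-day libraries were above all others at both days, with no overlap. The log2 difference between 14 and 7 days was -4.43 at day 3 (SE 0.54, adjusted p = 5.67e-08) and -4.32 at day 0 (SE 0.68, adjusted p = 1.23e-05). It was also higher at day 3 than at day 0 within 7-day cells (log2 change 1.36, SE 0.40, adjusted p = 0.00422).

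ENSRNOG00000011659 had the same shape at a higher level. It had 0.226 and 0.640 CPM in 14-day libraries at day 3, against 10.6 and 8.52 CPM in 7-day libraries, and 0.392 and 0.710 CPM in control libraries. At day 0 it had 0.317 and 0.663 CPM after 14 days, against 7.27 and 7.02 CPM after 7 days, and 0.954 and 0.444 CPM in control cells. The 14-day and control libraries overlapped at both days and the 7-day libraries stood above them. The log2 difference between 14 and 7 days was -4.43 at day 3 (SE 0.38, adjusted p = 2.34e-11) and -3.83 at day 0 (SE 0.38, adjusted p = 8.33e-10). Both genes had few reads after 14 days, and leaving out 1 library moved their day 3 differences between -5.50 and -3.84 and between -5.35 and -3.88.

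The 89 genes that rose at least 2-fold took 0.302% and 0.300% of the counts in the 14-day libraries at day 3, against 0.143% and 0.145% in the 7-day libraries. Control cells at day 3 gave 0.170% and 0.168%. The mean was highest in 14-day cells at day 3 for 47 of the 89, in control cells at day 0 for 20 and in 14-day cells at day 0 for 13. It was lowest in 7-day cells at day 3 for 45. Over all 13215 genes tested, these counts of highest means were 2976, 2330 and 2074, and that of lowest means was 1945. The choice on the day 3 libraries favours highs in 14-day and lows in 7-day cells at day 3. At day 0, 17 of the 89 were also higher after 14 days, 4 were lower and 68 were not called; over all genes 5.47% were higher and 6.26% lower. The change of the difference passed the test in 24, all more positive at day 3, as it did in 4.14% of all genes; the day 3 libraries that chose the 89 enter that test.

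The 17 genes higher at both days were mostly well expressed. Their median gene was at 55.6 and 53.5 CPM in the 14-day libraries at day 3, against 25.5 and 24.7 CPM in the 7-day libraries, and control cells had 19.2 and 18.0 CPM. At day 0 it was at 14.8 and 16.7 CPM after 14 days, against 7.88 and 9.81 CPM after 7 days, and at 13.9 and 13.4 CPM in control cells. The 68 rises not called at day 0 were low, with a mean median of 2.04 CPM in 14-day libraries at day 3, against 0.799 CPM in 7-day libraries (SD 0.0624 and 0.101, n = 2 each). At day 0 their medians were 1.24 and 1.09 CPM after 14 days, against 1.00 and 1.15 CPM after 7 days, so the groups overlapped. The day 0 calls set the 17 and the 68 apart, which favours such an overlap.

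ENSRNOG00000027742 was the largest rise by the ranking and the only one of at least 4-fold with 5 CPM or more. It had 25.5 and 22.2 CPM in 14-day libraries at day 3, against 3.29 and 4.62 CPM in 7-day libraries. Control cells at day 3 had 4.44 and 4.08 CPM. At day 0 it had 2.80 and 2.89 CPM after 14 days, against 2.79 and 2.73 CPM after 7 days, and 1.91 and 2.33 CPM in control cells. The induced 14-day libraries stood above the other 10, and the 14-day and 7-day libraries were close before induction. The log2 difference was 2.60 at day 3 (SE 0.20, adjusted p = 7.38e-13) and 0.04 at day 0 (SE 0.25, adjusted p = 0.947), and the change between the days was 2.55 (SE 0.32, adjusted p = 4.10e-07).

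ENSRNOG00000019680 was the second rise, near the 5 CPM limit of the ranking. It had 4.96 and 5.38 CPM in 14-day libraries at day 3, against 2.10 and 0.960 CPM in 7-day libraries, and 2.68 and 3.78 CPM in control libraries. At day 0 it had 2.43 and 2.08 CPM after 14 days, against 1.88 and 2.24 CPM after 7 days, and 4.03 and 3.22 CPM in control cells. The 14-day libraries were the highest at day 3, and the 7-day libraries were the lowest and differed most from each other. Against control at day 3 the 7-day level was called lower in the edgeR fit (log2 difference -1.06, adjusted p = 0.0281). The 14-day level was not called against control (0.67, adjusted p = 0.0769). The log2 difference between 14 and 7 days was 1.73 at day 3 (SE 0.32, adjusted p = 8.12e-05). Leaving out 1 library moved that difference between 1.30 and 2.42. The difference at day 3 was larger than at day 0 by 1.6 on the log2 scale (SE 0.47, adjusted p = 0.0240).

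**Figure D3:**
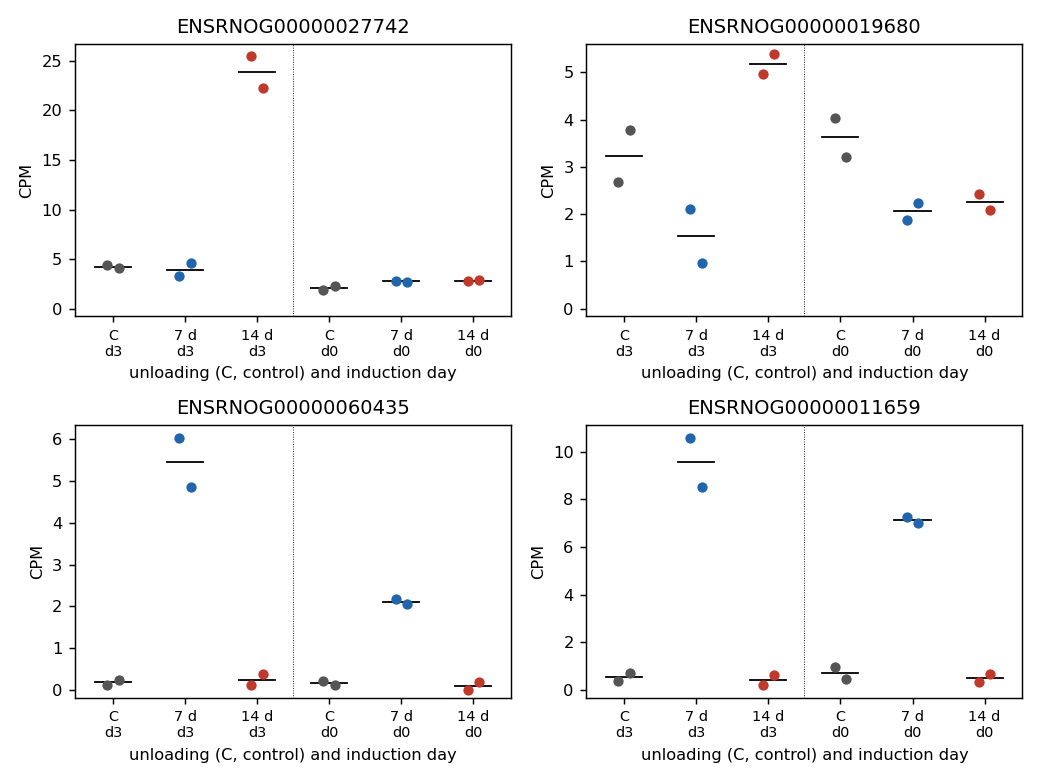
CPM in all 12 libraries of the 2 largest rises (top) and 2 largest falls (bottom) among called genes whose higher group averaged 5 CPM or more, with no overlap of the groups: control (C, grey), 7 days (blue) and 14 days of unloading (red), day 3 left and day 0 right of the dotted line; points are libraries and bars are means of 2. ENSRNOG00000027742 is high in the induced 14-day libraries alone, at 25.5 and 22.2 CPM, while both falls are high in the 7-day libraries at both days.

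Some genes had no reads in one of the groups. At day 3, 85 tested genes had 0 reads in both 14-day libraries, and 24 of these were called lower than after 7 days. A count of 0 over the group allows up to 3 counts, or 0.0822 CPM. This limit covers counting error only and takes every count as a separate fragment. Most small counts were even numbers, and whether fragments entered the counts more than once is not known. Such repeated counting would make the limits of both directions higher and the fold bounds given here smaller. With both libraries pooled, the 24 genes had 0.227 to 1.22 CPM after 7 days (median 0.653), so they were at least 2.76-fold to at least 14.8-fold lower after 14 days against that limit. In 17 of the 24 control cells at day 3 were above the limit. In the other direction, 55 tested genes had 0 reads in both 7-day libraries at day 3, and 5 of these were called higher after 14 days, where they had 0.274 to 1.29 CPM in the pooled libraries. They were at least 3.22-fold to at least 15.1-fold higher against a limit of 0.0852 CPM. All of these genes were low, and a loss of expression below the limit was not detectable at this depth.

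Fewer genes were called between the periods before induction than after it. Replicate counts spread most in the 7-day group of day 0 (chi-square per degree of freedom 7.36, against 4.64 in the 7-day group of day 3). Whether this spread affects the number of calls was not tested. After 14 days 723 genes (5.47%) stood higher at day 0 and 827 (6.26%) stood lower, 1550 in all (11.7%). This total fell without either 14-day library of day 0 or the first 7-day one, and rose without the second 7-day one. With all libraries, 42 genes (0.318%) were at least 2-fold higher and 274 (2.07%) at least 2-fold lower. Of the 1529 genes higher at day 3, 291 were also higher at day 0, which is 19.0% of the day 3 list and 40.2% of the day 0 list. Of the 1459 lower at day 3, 405 were also lower at day 0, or 27.8% and 49.0% of these lists. Opposite calls at day 0 were made for 71 of the genes higher at day 3 and 61 of those lower. The day 3 and day 0 comparisons use separate libraries, and their log2 differences had a Pearson r of 0.39 and a Spearman rho of 0.27 over the 13215 genes. This is a description over genes, which are not independent replicates. Total-count scaling gave 20.6% higher among the genes called at day 0, against 46.6% with TMM.

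**Figure D4:**
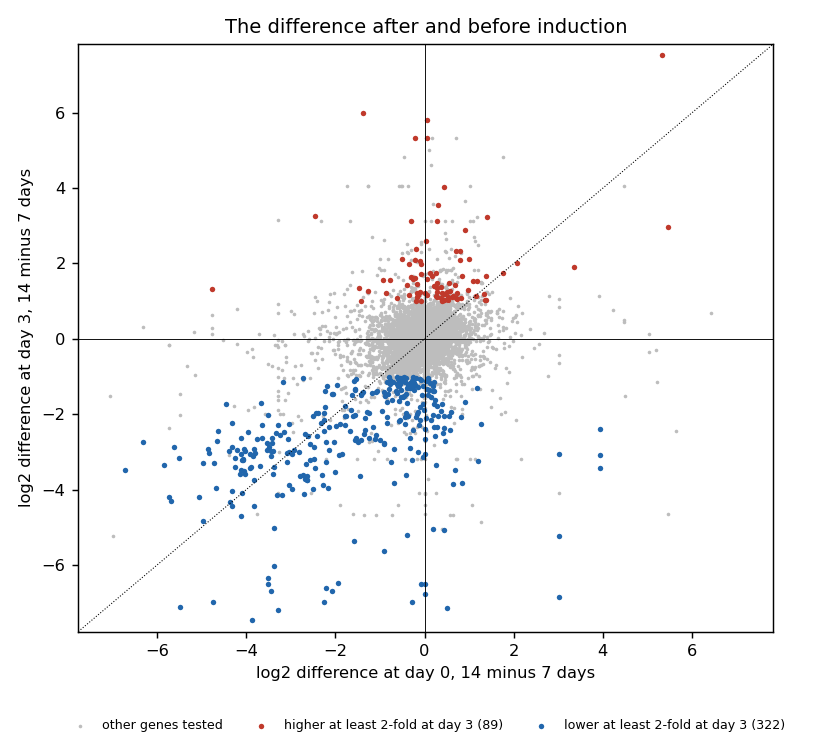
Fitted log2 differences of 13215 genes, 14 minus 7 days, at day 3 (y axis) and at day 0 (x axis); coloured points were called at least 2-fold higher (89, red) or lower (322, blue) at day 3, and the dotted line marks equal differences. Many blue points lie along the line near -3 on both axes, while others, and most red points, lie near 0 at day 0; points in straight rows have 0 reads in a group.

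The test of the change itself found 1134 genes (8.58%) in which the difference between 14 and 7 days was not the same at day 3 as at day 0. It was more positive at day 3 in 547 (4.14%) and more negative in 587 (4.44%). Of the 1529 genes higher at day 3, the change was more positive in 377, and 284 of these had no call at day 0. Of the 1459 lower at day 3, the change was more negative in 423, and 336 of these had no call at day 0. A call at day 3 without a call at day 0 was made for 1167 of the higher and 993 of the lower genes, so most such pairs of calls did not pass the test of the change. The total of 1134 rose without the second 7-day library of day 3 or the first 7-day library of day 0. It fell without any other single library of the unloaded groups, and most without the first 14-day library of day 3. The range is given at the end.

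Genes were also classified by their change in control cells, a contrast without the 4 libraries apart from the shared filter, scaling and estimate of spread. In control cells 6960 genes (52.7%) were called, of which 3414 (25.8%) rose and 3546 (26.8%) fell from day 0 to day 3. Of these, 218 rose at least 8-fold (1.65%) and 262 fell at least 8-fold (1.98%). Among the 218, 63 (28.9%) had lower levels in 14-day than in 7-day induced cells and 24 (11.0%) had higher levels; over all genes tested 11.0% were lower and 11.6% higher. At least 2-fold differences were called in 37 lower (17.0%) and 8 higher (3.67%), against 2.44% and 0.673% of all genes. The median log2 difference of the 218 was -0.24, against 0.02 over all genes tested.

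The 218 were chosen for high values in control cells at day 3, so a control level above the unloaded groups is favoured by the choice. Over all 218 the median gene was at 1.88 CPM after 14 days, against 2.72 CPM after 7 days, and at 7.24 CPM in control cells. Of the 37 that fell at least 2-fold the median gene was at 0.608 CPM after 14 days at day 3, against 3.79 CPM after 7 days, and at 25.6 CPM in control cells. At day 0 these medians were 0.106 CPM after 14 days, 0.365 CPM after 7 days and 0.436 CPM in control cells. The 8 that rose stood at a median of 16.2 CPM after 14 days, against 6.04 CPM after 7 days, and 10.6 CPM in control cells. Summed over the 218 genes the groups were closer: they held 1.78% and 1.81% of the counts after 14 days, against 1.93% and 1.91% after 7 days, and 2.35% in each control library. At day 0 42 of the 218 were lower after 14 days and 6 higher, where 6.26% and 5.47% of all genes were. The change of the difference between the days passed the test in 22 more negative and 17 more positive, against 4.44% and 4.14% of all genes.

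The other classes of response in control cells were as follows. Of the 703 genes that rose 2- to 8-fold in control cells, 103 (14.7%) were higher and 113 (16.1%) lower after 14 days. Of the 2493 that rose by less than 2-fold, 331 (13.3%) were higher and 440 (17.6%) lower. Of the 2215 that fell by less than 2-fold, 415 (18.7%) were higher and 189 (8.53%) lower, and of the 1069 that fell 2- to 8-fold, 174 (16.3%) were higher and 110 (10.3%) lower. The 262 genes with the strongest falls had 12 (4.58%) higher and 29 (11.1%) lower, at low levels: their median gene was at 0.206 CPM after 14 days and 0.228 CPM after 7 days at day 3. When libraries were scaled to their total count, lower genes were more numerous than higher ones in every class, including both classes of weaker falls, where 193 were higher against 402 lower (under 2-fold) and 127 against 158 (2- to 8-fold). For the 218 strongest rises that scaling gave 17 higher and 70 lower.

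**Figure D5:**
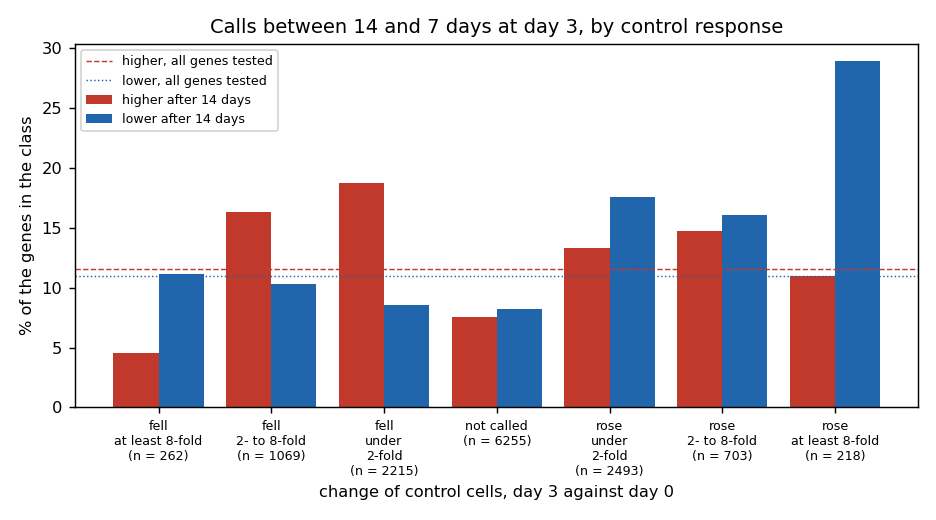
Bars give the percentage of genes called higher (red) or lower (blue) after 14 than after 7 days at day 3, in 7 classes of genes by their change in control cells from day 0 to day 3; dashed and dotted lines mark the percentages over all genes tested, 11.6% and 11.0%. The class that rose at least 8-fold in control cells stands out with 28.9% lower, while both classes of weaker falls have more higher than lower genes with TMM scaling, which turns round with scaling to the total count.

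Set beside control cells at day 3, the 14-day cells differed in more genes than the 7-day cells. Called against control were 4132 genes (31.3%) after 14 days and 1874 (14.2%) after 7 days. Higher than control were 2116 genes (16.0%) after 14 days and 892 (6.75%) after 7 days, and lower were 2016 (15.3%) and 982 (7.43%). Both comparisons share the 2 control libraries. These counts are from the fit with TMM scaling, and other scalings or left-out libraries were not run for them. For the 322 large falls the median log2 difference from control was -0.45 after 14 days and 1.87 after 7 days; 29 were higher and 107 lower than control after 14 days, and 177 higher and 44 lower after 7 days. For the 89 large rises the medians were 0.98 after 14 days and -0.49 after 7 days, with 46 higher and 0 lower after 14 days and 5 higher and 16 lower after 7 days. These genes were chosen on the same unloaded libraries.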

How the data were processed

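Poly(A) RNA of 12 libraries (6 groups of 2) was sequenced in reads of 51 bp after stranded library preparation, per the series' design text. The authors deposited raw counts per Ensembl gene identifier; per the submitters' processing notes, the tools were FastQC 0.11.9, STAR 2.7, featureCounts 1.6.4 and DESeq2, and the build Rnor_6.0. How strand was handled and which annotation was used is not stated there, so overlapping genes and near-identical copies may share reads.

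Low genes were removed with edgeR 4.0.16 (filterByExpr, R 4.3.3), libraries were scaled by TMM, and 1 quasi-likelihood fit of 6 group means to 12 libraries had 6 residual degrees of freedom. Tests were two-sided with Benjamini-Hochberg adjustment at 0.05 over 13215 genes. Each SE is the absolute fitted log2 difference divided by the square root of the F statistic of its test. It is an approximation, not a standard error taken from the fit. The fit was tested on simulated data. DESeq2 1.42.0, other scalings and filters, smaller fits, halved counts, a replicate block and left-out libraries were alternatives.

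The rule for named genes was the largest fitted differences among called genes with no overlap and at least 5 CPM in the higher group; its symbol condition could not be met, so 2 per direction are named by identifier. The gene lists chosen at the start could not be applied. Comparison, rule and lists were chosen with earlier results of these data known. The replicates of a group differed by more than sampling noise of single reads (chi-square per degree of freedom 2.69 to 7.36).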

Additional observations from a re-analysis of the deposited data

Results flagged for a closer look

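The difference between 14 and 7 days of unloading was not the same at day 3 as at day 0 in 1134 genes, by the interaction test of edgeR. Among the named genes it was larger at day 3 for ENSRNOG00000027742, by 2.55 on the log2 scale (SE 0.32, adjusted p = 4.10e-07), in 2 of 2 induced 14-day libraries. For ENSRNOG00000019680 it was larger by 1.6 (SE 0.47, adjusted p = 0.0240). The ranking required, for both genes, both induced 14-day libraries to lie above both induced 7-day libraries. The day 3 libraries that chose them also enter the interaction test. In the same edgeR fit the 7-day level of ENSRNOG00000019680 at day 3 was called lower than control (log2 difference -1.06, adjusted p = 0.0281). Its 14-day level was not called against control (0.67, adjusted p = 0.0769).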

How the results depend on the processing

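Under the 9 alternatives other than leaving out a library, the genes called at day 3 numbered 2606 to 3373 (2988 in the fit reported), those of at least 2-fold 364 to 458 (411) and those called at day 0 1151 to 1919 (1550); the changes between days, under 7 alternatives, numbered 1018 to 1268 (1134). Leaving out 1 library gave 1696 to 2539 genes at day 3, 322 to 388 of at least 2-fold, 866 to 1685 at day 0 and 632 to 1545 for the change. A group left with 1 library was assumed to vary like the others. The 4 named genes kept direction and call at day 3 in all of these. With the replicate number as a block (replicate block) 2876, 400, 1436 and 1023 genes were called. Same-numbered libraries of the day 3 groups did not deviate together (correlation -0.051). No pairing by number was seen, but 2 libraries a group cannot exclude one. The gene lists could not be applied under any setting, because the identifiers had no symbols. Counting depth limits the lowest class of genes, where replicates differed most.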
